A study of Mus musculus with 74 samples.

Results

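The comparison described here sets 2 homozygous Aire alleles on the C57BL/6 background against each other in mature medullary thymic epithelial cells: the missense allele Y86C and the null allele. Each allele was first compared with the wild type of its own line, and the Y86C effect minus the null effect was then tested gene by gene. The samples were 13 of the 74 in the study: 3 Aire Y86C/Y86C libraries, 3 Aire +/+ libraries of the Y86C line, 4 Aire -/- libraries and 3 Aire +/+ libraries of the null line. One more library of the null line, Aire_wt_438, was left out because its title names a wild type and its genotype field gives Aire -/-. All mice were 4 to 7 weeks old. The cells, called mTEChi, were sorted from enzymatically dissociated thymi as the fraction rich in MHC class II, and the RNA was sequenced by bulk MARS-seq, which counts the 3′ ends of transcripts. The labels do not say that each library is a separate animal, so p-values measure the spread between these samples. They also do not say which part of Aire the null allele lacks. The line and the count table change together between both effects and cannot be told apart from the allele, and the labels name no preparation batch.

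AIRE is a nuclear protein through which medullary thymic epithelial cells transcribe a wide range of genes otherwise restricted to peripheral tissues, so that developing T cells meet these antigens before they leave the thymus. Its amino-terminal CARD domain lets AIRE molecules assemble into large nuclear complexes, and tyrosine 86 lies in this domain. Medullary epithelium also contains mimetic cells, small populations that resemble peripheral cell types such as tuft cells, keratinocytes and microfold cells.

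The altered codon lies in exon 2 of 14 of Aire, in the coding sequence of the transcript Aire-204, which encodes 552 residues. It occupies chr10:78042954-78042956 on the minus strand (GENCODE vM21, GRCm38). The reference sequence around it, read 5′ to 3′ in the direction of transcription from chr10:78042933-78042977, is shown because it locates the residue that Y86C changes. Capitals mark the codon for tyrosine 86.
Aire codon 86: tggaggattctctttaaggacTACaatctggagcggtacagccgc

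Aire transcript was higher in both homozygotes than in their wild types. It stood at 1586, 1539 and 1602 CPM (counts scaled to a common library size) in the wild types of the Y86C line and at 3833, 4082 and 4072 in Y86C/Y86C. In the null line it stood at 1988, 2059 and 1930 CPM in wild types and at 3649, 2726, 3444 and 3025 in Aire -/-. Neither pair of groups overlapped. The rise was 1.34 ± 0.09 on the log2 scale (SE) with Y86C and 0.69 ± 0.08 with the null allele, and the difference of 0.65 ± 0.11 had an adjusted p of 0.000386 in edgeR's quasi-likelihood test. A 3′ count outside a deleted part does not check the null label, and the point mutation cannot be read from counts. The mature medullary markers Cd80, H2-Aa, Cd74, Epcam and Fezf2 were detected in all 13 libraries, which does not measure the purity of the sort. The macrophage marker C1qa was detected too. It stood at 87.2 to 181 CPM in Aire -/- and 130 to 151 in its wild types, and at 30.8 to 39.3 in Y86C/Y86C and 48.7 to 68.1 in its wild types.

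The libraries held 1690548 to 3618266 counts. Of 15508 genes present in both tables, 13624 passed the filter on low counts and were tested. Xist stood at 59.2 to 169 CPM in 12 libraries and at 8.71 CPM in 1 Aire -/- library. Among wild types, 4017 genes (29.5%) differed between the lines, so part of the 2 effects starts from different levels. Immediate-early and heat-shock genes were among them: 13 of 18 were higher in the wild types of the Y86C line. The list summed to 5367 to 6952 CPM there against 2442 to 3596 CPM. No member was called in the difference of effects by edgeR or DESeq2 (4 of 18 had an unadjusted p under 0.05 in edgeR). As 6.18% of all tested genes were called, no call among 18 is near that share.

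Both alleles changed a large share of the transcriptome in largely matching directions. Y86C raised 3035 genes and lowered 3620, which is 22.3% and 26.6% of those tested (48.8% in all). The null allele raised 2573 and lowered 2931, or 18.9% and 21.5% (40.4% in all). A gene is said here to rise, fall or be called only where its Benjamini-Hochberg adjusted p, over all 13624 genes in edgeR's quasi-likelihood test, was under 0.05. The 2362 genes that fell with both alleles made up 65.2% of those that fell with Y86C and 80.6% of those that fell with the null allele. The 1895 genes that rose with both made up 62.4% and 73.6%. Over the 7851 genes called in either effect, the log2 changes correlated across genes with r = 0.90, and the orthogonal slope of Y86C on null was 1.43. Over the 7150 of them with at least 4 counts in each group, r was 0.87 and the slope 1.35. Genes are not independent replicates, and each effect shares its wild types across all genes, so this is a description.

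The difference between both effects was called for 842 genes (6.18% of those tested): 375 (2.75%) were higher and 467 (3.43%) lower with Y86C. In 512 of the 842 both effects had the same sign and the Y86C effect was the larger one, and in 44 the null effect was larger. The effects had opposite signs in 286. In 51 of these both effects were called, with 39 genes that fell with Y86C and rose with the null allele and 12 that did the reverse. A fit that pooled the 4 C57BL/6 tables of the study called 291 genes, 162 higher and 129 lower. Leaving out Y86C/Y86C replicate 4 gave 199 higher and 267 lower, and leaving out the wild type Aire_wt_430 of the null line gave 241 higher.

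**Figure D1:**
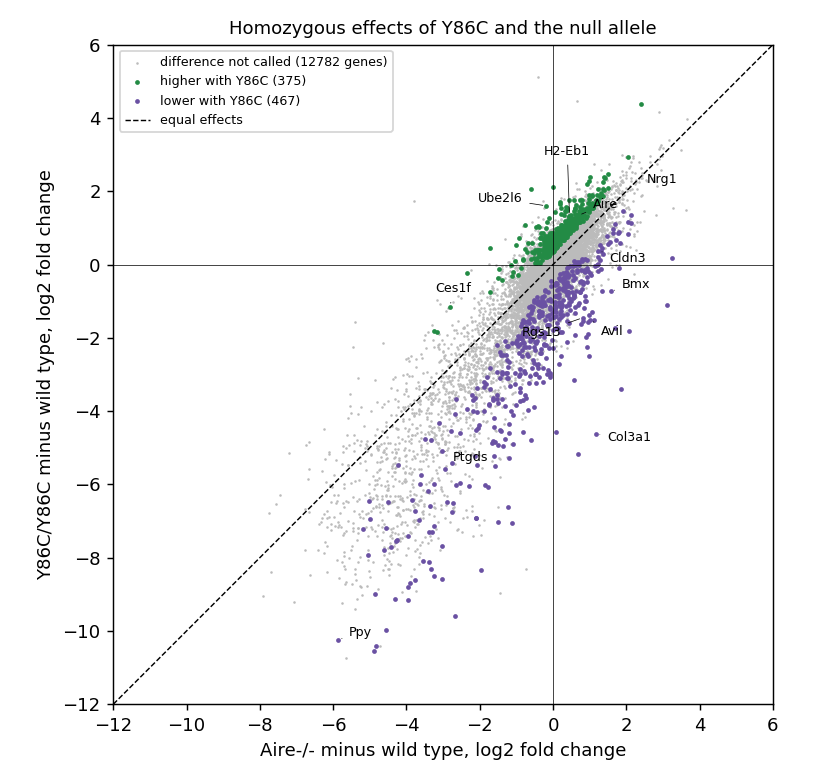
Each point is 1 of the 13624 tested genes, with the log2 change in Aire -/- on the x axis and in Y86C/Y86C on the y axis, both relative to wild types of the same line. Genes called higher (375) or lower (467) in the difference are coloured, the dashed line marks equal effects, and the cloud is steeper than that line, with Avil, Rgs13, Bmx and Col3a1 on opposite sides of 0.

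Genes of peripheral tissues that depend on AIRE fell with both alleles, and further with Y86C. To describe them without choosing them on these samples, they were taken from another allele of the study, C442G, as the 1892 tested genes at least 2-fold lower in C442G homozygotes than in their own wild types. Their share of all counts was 5.97 to 6.04% in the wild types of the Y86C line and 0.919 to 1.03% in Y86C/Y86C, a 6.04-fold drop between the group means. In the null line it went from 4.35 to 4.83% to 1.41 to 1.66%, a 3-fold drop. Y86C/Y86C lay below Aire -/- in every library, while the wild types of the Y86C line lay above those of the null line. The median change of these genes was -2.71 on the log2 scale with Y86C and -1.76 with the null allele. The median difference of effects was -0.93, or -0.84 when genes with an empty group were placed at the bound their counts allow. In the difference, 3 were called higher and 248 lower, beside 2.75% and 3.43% of all tested genes. The 1526 genes chosen in the same way from the C313X allele gave medians of -3.20 and -2.22.

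**Figure D2:**
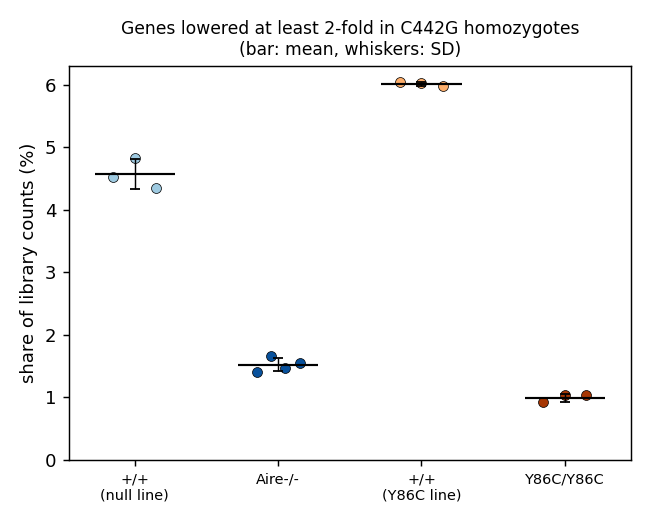
The y axis gives the percent of each library's counts that fell on genes at least 2-fold lower in C442G homozygotes, a set chosen without the 13 libraries plotted. Points are libraries, bars group means and whiskers SD; Y86C/Y86C sits at 0.919 to 1.03% and Aire -/- at 1.41 to 1.66%.

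Among 28 tested members of a list of known AIRE-induced antigens, 24 fell with each allele, and in the difference 6 were lower and 1 was higher with Y86C. Over all tested genes, 26.6% fell with Y86C and 21.5% with the null allele, and 3.43% were lower and 2.75% higher in the difference. Some of the antigens recur in the lists below, such as Ppy among hormones and Pcp4 among neural genes. Pancreatic polypeptide, encoded by Ppy, stood at 186, 215 and 227 CPM in the wild types of the Y86C line and at 0, 0.325 and 0 in Y86C/Y86C, where 1 count remained in all. In the null line it stood at 96.5, 88.2 and 103 CPM in wild types and at 0.387, 1.58, 1.57 and 2.54 in Aire -/-. The groups did not overlap in either line. The difference for Ppy was called (adjusted p = 0.000898, edgeR), and it was not in the fit of 4 tables (adjusted p = 0.0886) or with heterozygotes in the fit. In counts, the wild-type level was 1663-fold that in Y86C/Y86C, with a counting interval of 298 to 65741.

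The neuropeptide precursor Pomc stood at 282, 321 and 338 CPM in wild types and 15.3, 17.2 and 25.2 in Y86C/Y86C. Aire -/- libraries held 16.7, 22.6, 23.5 and 19.2 CPM, against 140, 138 and 111 in their wild types. The homozygotes therefore overlapped and the wild types did not. Pomc fell by 4.08 on the log2 scale with Y86C and by 2.68 with the null allele, a difference of -1.41 ± 0.20 (adjusted p = 3.08e-05, edgeR). The call was lost in the fit of 4 tables and with heterozygotes in the fit, with adjusted p up to 0.276. The homozygotes themselves did not differ by the test (adjusted p = 0.583, edgeR), whereas the wild types did (adjusted p = 6.56e-11, edgeR). Pcp4, a calmodulin-binding peptide of Purkinje cells, had the same arrangement: 213, 203 and 162 CPM in the wild types of the Y86C line against 83, 107 and 116 in those of the null line, and 7.95, 12.3 and 7.84 in Y86C/Y86C against 12.4, 13.1, 11.5 and 10.2 in Aire -/-. Its call was lost in the fit of 4 tables (adjusted p = 0.147, edgeR).

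Of 16 hormones of pancreatic islets and gut, 15 fell with Y86C and 14 with the null allele, and 4 were lower in the difference, namely Ppy, Pyy, Cck and Nts. All 4 lost their call in some alternative: Pyy in 11 of 19 (adjusted p up to 0.156), and Ppy, Cck and Nts with heterozygotes in the fit and in the fit of 4 tables (up to 0.13, 0.154 and 0.274). Wild types of the Y86C line were higher than those of the null line for 12 of the 16 hormones and lower for 0, beside 16.3% and 13.1% of all tested genes. For 23 neural genes and neuropeptides these counts were 17 and 0. Homozygotes differed for Ppy, Pyy and Cck, and not for Nts (adjusted p = 0.19, edgeR). Cholecystokinin, encoded by Cck, held 1.27, 0.649 and 0 CPM in Y86C/Y86C and 4.65, 1.58, 5.22 and 2.83 in Aire -/-, after 142, 165 and 140 CPM and 67.1, 55.5 and 79 CPM in the respective wild types. Neural genes and neuropeptides gave 5 lower and 1 higher of 23, acinar enzymes 2 lower of 19, milk and salivary proteins 2 lower of 16, lens and retina genes 3 lower of 16, and liver plasma proteins 1 each way of 21, beside 2.75% higher and 3.43% lower over all tested genes, a share near which the liver count lies. Of the lens and retina calls, Cryba4 and Sag were lost in 10 and 8 of 19 alternatives, and DESeq2 called 1. None of 21 skeletal and heart muscle genes was called in the difference by edgeR or DESeq2, and 6 had an unadjusted p under 0.05 in edgeR. For muscle genes the median change was -2.27 with Y86C and -1.67 with the null allele.

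Several genes reached 0 counts in Y86C/Y86C but not in Aire -/-. Zg16, a lectin of zymogen granules and gut mucus, had no count in any of the 3 Y86C/Y86C libraries after 40.5, 45.9 and 25.8 CPM in wild types, which is at least 101-fold lower when 3 counts over the group are taken as the floor. Aire -/- libraries kept 2.32, 3.56, 1.04 and 2.83 CPM after 20.3, 15 and 13.2. Obp2a, an odorant-binding protein, had 0 counts in Y86C/Y86C, at least 195-fold below its wild types, while Aire -/- libraries kept 1.94 to 2.77 CPM. Fbln2, which encodes the matrix protein fibulin 2, was at least 42.6-fold lower with Y86C. The call of the difference held in every alternative for Zg16, was lost for Obp2a with heterozygotes in the fit and in the fit of 4 tables (adjusted p up to 0.0846), and was lost for Fbln2 in the fit of 4 tables (0.136).

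A minority of genes that fell with both alleles fell less with Y86C. Reg3g, an antibacterial lectin of the gut, stood at 1562, 1420 and 1626 CPM in wild types and at 430 to 515 in Aire -/-. In the Y86C line it went from 2251, 2920 and 2536 CPM to 1478, 1509 and 1614. Its fall was 1.73 on the log2 scale with the null allele against 0.74 with Y86C, and the difference of 0.98 ± 0.12 had an adjusted p of 1.7e-06 (edgeR). Calca, the precursor of calcitonin and CGRP, fell by 1.39 with the null allele and by 0.41 with Y86C. It had 76 to 103 CPM left in Aire -/- and 261 to 389 in Y86C/Y86C, after means of 225 and 450 CPM in the respective wild types. The carboxylesterase gene Ces1f kept 41, 42.9 and 17.9 CPM in Y86C/Y86C and 7.75, 4.75, 6.26 and 5.65 in Aire -/-. Its wild types also differed, at means of 78.8 CPM in the Y86C line and 42.4 in the null line. Ces1f fell by 1.15 with Y86C and by 2.81 with the null allele, a difference of 1.66 ± 0.31 (adjusted p = 0.00168, edgeR). Ces1f and Reg3g belong to families of similar genes, and how the counting assigned shared reads is not given in the sources used here.

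Most listed genes of the mature medullary state and of MHC class II presentation rose with each allele, and for several the rise was larger with Y86C. In a list of 22 mature medullary genes, 18 rose and 2 fell with each allele, and 8 were higher and 2 lower in the difference. Over all tested genes, 22.3% rose with Y86C and 18.9% with the null allele, and 2.75% were higher and 3.43% lower in the difference. Among 18 genes of MHC class II presentation, 14 rose with each allele and 6 were higher in the difference. H2-Eb1 is in both lists, so their counts are not independent. H2-Eb1, a beta chain of the class II molecule I-E, stood at 4636, 6551 and 5900 CPM in the wild types of the Y86C line and at 5779, 5687 and 5699 in those of the null line. It reached 15170, 12806 and 14723 CPM in Y86C/Y86C and 8901, 6858, 7435 and 8081 in Aire -/-. The wild types overlapped and the homozygotes did not overlap. The difference was 0.87 ± 0.14 (adjusted p = 0.000627, edgeR). I-E is not formed at the surface in C57BL/6 mice, which lack a functional alpha chain gene.

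Other class II genes moved less. Cd74, the invariant chain, reached 17069, 14686 and 14732 CPM in Y86C/Y86C, which is below 3 of the 4 values in Aire -/- (19942, 14910, 18432 and 19421). Its difference of 0.41 ± 0.12 (adjusted p = 0.0377, edgeR) went with lower wild types, at 7995 to 9320 CPM against 12718 to 13650. H2-Aa and H2-Ab1 had differences of 0.59 ± 0.22 and 0.40 ± 0.17 and were not called (adjusted p = 0.163 and 0.216, edgeR). The cathepsin L gene Ctsl, whose product cleaves the invariant chain, fell with both alleles, to 69.6, 78.3 and 71.1 CPM in Y86C/Y86C and 171, 137, 250 and 183 in Aire -/-, and was the 1 member lower in the difference, a call lost in 11 of 19 alternatives with adjusted p up to 0.328.

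For MHC class I and processing, more genes rose with Y86C than with the null allele. Of 16 tested genes there, 12 rose and 1 fell with Y86C, while 5 rose and 3 fell with the null allele. Over all tested genes, 22.3% rose with Y86C and 18.9% with the null allele, and 2.75% were higher in the difference. Psmb10 and Psme2 were the 2 higher in the difference, and their calls were lost in 11 and 5 of 19 alternatives. Of 12 costimulatory and inhibitory ligands and receptors, 2 were higher in the difference, beside the same 2.75%. Icosl, the ligand of the T cell receptor ICOS, stood at 531 ± 103 CPM in Y86C/Y86C (SD, n = 3) against 151, 175 and 183 in its wild types. Aire -/- libraries held 406, 311, 395 and 373 CPM against 223, 230 and 191. The homozygotes did not overlap, and the difference was 0.86 ± 0.17 (adjusted p = 0.00372, edgeR). In the annotation used here Icosl, at chr10:78069302-78083913 on the plus strand, lies near Aire, at chr10:78030022-78043610. Dnmt3l, a cofactor of DNA methyltransferases, lies between them at chr10:78041947-78063622 on the plus strand and overlaps the start of Aire. It rose by 1.14 with Y86C and by 2.14 with the null allele on the log2 scale, a difference with adjusted p = 0.0014 (edgeR; 0.12 in the fit of 4 tables), and stood at 138, 141 and 92.9 CPM in Y86C/Y86C and 159, 166, 164 and 185 in Aire -/-. Whether the counting used strand is not given in the sources used here. Cd80, which binds CD28 and CTLA-4, reached 89.3, 85.1 and 72.8 CPM in Y86C/Y86C and 47.7, 45.1, 55.3 and 42.1 in Aire -/-, a difference of 0.68 ± 0.19 (adjusted p = 0.0267, edgeR) whose call was lost in 8 of 19 alternatives, with adjusted p up to 0.118.

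The RANK pathway drives medullary epithelial maturation. Of its 20 listed genes, 4 were higher in the difference and 1 was lower, beside 2.75% and 3.43% of all tested genes. The receptor RANK itself, encoded by Tnfrsf11a, stood at 260, 255 and 277 CPM in Y86C/Y86C and at 164, 164, 156 and 157 in Aire -/-. Wild types held 134, 130 and 128 CPM and 119, 137 and 122 CPM. Its difference was 0.65 ± 0.12 (adjusted p = 0.00079, edgeR), and the fit of 4 tables did not call it (adjusted p = 0.324). The decoy receptor gene Tnfrsf11b, the adaptor Traf6 and the noncanonical subunit Nfkb2 were also higher in the difference, by 0.51, 0.70 and 0.44. The level of Nfkb2 was lower in Y86C/Y86C, at 1010, 937 and 977 CPM against 1385, 1238, 1311 and 1206 in Aire -/-. Its difference went with lower wild types, at 529, 590 and 603 CPM against 1051, 1009 and 1026. Nfkb2 was not called in the fit of 4 tables (adjusted p = 0.0863, edgeR). Tnfaip3, the feedback inhibitor A20, was lower by 0.78, while DESeq2 called 4 of the list higher and none lower. The calls for H2-Eb1, Icosl and Traf6 held in every alternative. The list counts were less stable: the fit of 4 tables called 2 mature medullary and 1 class II genes higher, and mature medullary calls fell to between 3 and 5 without the libraries Aire_wt_432, Aire_wt_434, Aire_KO_429 or Aire_KO_436, and without Y86C wild-type replicates 2 or 3 or Y86C/Y86C replicates 4 or 5. Class II calls fell to 2 or 3 in the same way, except without the Aire -/- libraries. Aire_KO_429 is the library with low Xist.

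**Figure D3:**
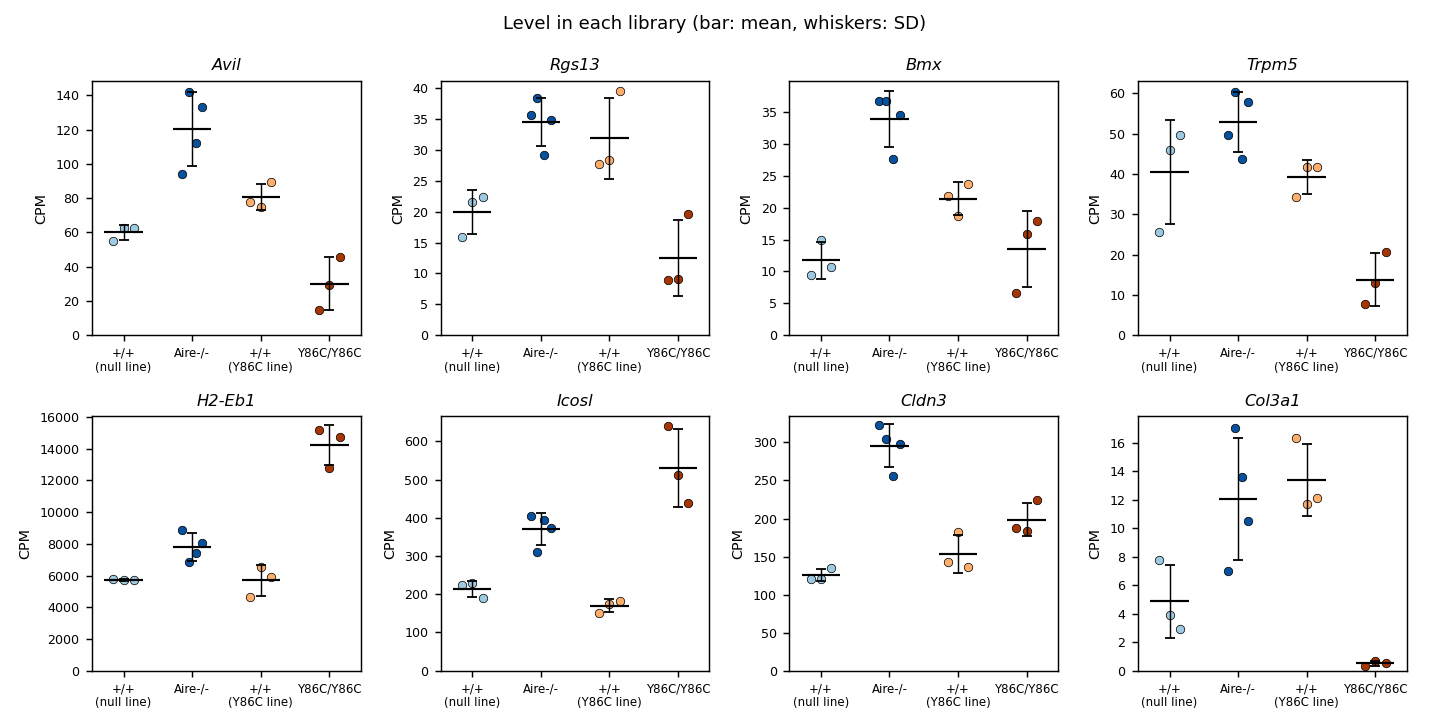
The y axis of each panel gives the level of 1 gene in CPM, from 0, for the 13 libraries; points are libraries, bars means and whiskers SD. Avil, Rgs13, Bmx and Trpm5 lie below their own wild types in Y86C/Y86C and have their highest mean in Aire -/-, H2-Eb1 and Icosl are highest in Y86C/Y86C, Cldn3 is highest in Aire -/-, and Col3a1 is nearly absent from Y86C/Y86C.

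Tuft cell genes moved in opposite directions. Tuft cells are chemosensory epithelial cells that detect ligands through the taste transduction cascade and release lipid mediators and interleukin 25. Of 20 tested tuft genes, 13 fell and 1 rose with Y86C, while 11 rose and 1 fell with the null allele. In the difference, 11 were lower and none was higher (DESeq2 gave 12 and 0, and 16 and 0 had an unadjusted p under 0.05 in edgeR), and the median difference of -1.48 compares with -0.03 over all tested genes. The other 9 had no call. Of all tested genes, 3.43% were lower and 2.75% higher in the difference. Summed over the list, the level was 230 to 470 CPM in Y86C/Y86C and 513 to 569 in its wild types. It was 613 to 825 CPM in Aire -/- and 341 to 473 in its wild types. Each homozygote thus lay outside its wild types on the opposite side. In bulk RNA, fewer tuft cells and less RNA per tuft cell cannot be told apart.

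Avil encodes advillin, an actin-binding protein of tuft cells. It stood at 77.8, 75.1 and 89.5 CPM in the wild types of the Y86C line and at 14.9, 29.2 and 45.9 in Y86C/Y86C. In the null line it stood at 55.2, 62.7 and 62.4 CPM in wild types and at 94.1, 142, 112 and 133 in Aire -/-. No groups overlapped within a line, and the difference was -2.53 ± 0.38 (adjusted p = 0.00349, edgeR). Rgs13, a regulator of G protein signalling, went from 27.8, 28.4 and 39.5 CPM to 8.9, 9.09 and 19.6 with Y86C, and from 15.9, 21.6 and 22.4 to 35.6, 38.4, 29.2 and 34.8 with the null allele. Its difference was -2.27 ± 0.30 (adjusted p = 9.86e-06, edgeR). Bmx, a Tec-family kinase, fell from 21.9, 18.7 and 23.7 CPM to 6.67, 15.9 and 17.9 with Y86C and rose from 9.48, 15 and 10.7 to 36.8, 36.8, 27.6 and 34.5 with the null allele (difference -2.31 ± 0.33, adjusted p = 3.67e-05, edgeR). These calls held in every alternative.

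The taste cascade genes Trpm5, Gnat3, Plcb2 and Gnb3 fell with Y86C. The cation channel gene Trpm5 held 34.3, 41.7 and 41.6 CPM in wild types and 7.63, 13 and 20.7 in Y86C/Y86C. With the null line, Trpm5 ranged from 25.7 to 49.7 CPM in wild types and from 43.8 to 60.2 in Aire -/-, and its effect there was not called. Gnat3 (gustducin), Plcb2 (a phospholipase) and Gnb3 (a G protein beta subunit) were also lower in the difference, by 1.47 to 1.70. Among lipid mediator genes, Ptgs1 (cyclooxygenase 1) and Alox5 (5-lipoxygenase) rose with the null allele, by 1.24 and 1.21, and were not called with Y86C, at -0.19 and -0.01. Alox5 held 10.8, 13 and 19 CPM in Y86C/Y86C against 12.4, 12.8 and 16.2 in wild types, and 52.3, 70.1, 44.9 and 62.5 CPM in Aire -/- against 24, 23.8 and 27.3.

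Members without a call did not all point one way. Pou2f3, the transcription factor that tuft cells require, held 1.27, 2.27 and 6.16 CPM in Y86C/Y86C against 6.66 to 9.48 in wild types and fell there, whereas Aire -/- libraries held 4.7 to 6.59 CPM against 4.4 to 6.66. Its difference of -1.58 ± 0.54 was not called (adjusted p = 0.0767, edgeR). The kinase gene Dclk1 fell with both alleles, by 1.93 and 0.91. The homeobox gene Hmx3 rose with both, to 39.1, 39.9 and 64.4 CPM in Y86C/Y86C and 57.9 to 70.1 in Aire -/-. Y86C/Y86C replicate 4 was the lowest for Avil, Rgs13, Bmx, Trpm5 and Pou2f3 and replicate 9 the highest. Leaving out 1 library at a time gave 9 to 14 tuft genes lower, and the fit of 4 tables gave 6.

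Beside the tuft list, 2 genes chosen by the rule for opposite effects are also expressed in tuft cells. Sh2d7, an SH2-domain protein, stood at 4.77, 3.9 and 12.3 CPM in Y86C/Y86C and 26.3, 37.6, 25.6 and 35.1 in Aire -/- (difference -2.62 ± 0.41, adjusted p = 0.000297, edgeR). Lrmp, an endoplasmic reticulum membrane protein, stood at 17.5, 28.9 and 53.2 CPM against 89.5, 135, 84 and 122 (difference -2.36 ± 0.51, adjusted p = 0.0274, edgeR). The Lrmp call was lost in 6 of 19 alternatives, with adjusted p up to 0.0728, and the Sh2d7 call in none. Adra2a, the alpha-2A adrenergic receptor, changed the same way at a low level: 1.59, 1.62 and 1.68 CPM in Y86C/Y86C and 6.97, 6.73, 7.83 and 7.35 in Aire -/-, with wild types at 3.92 to 7.91 and 1.11 to 3.41.

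**Figure D4:**
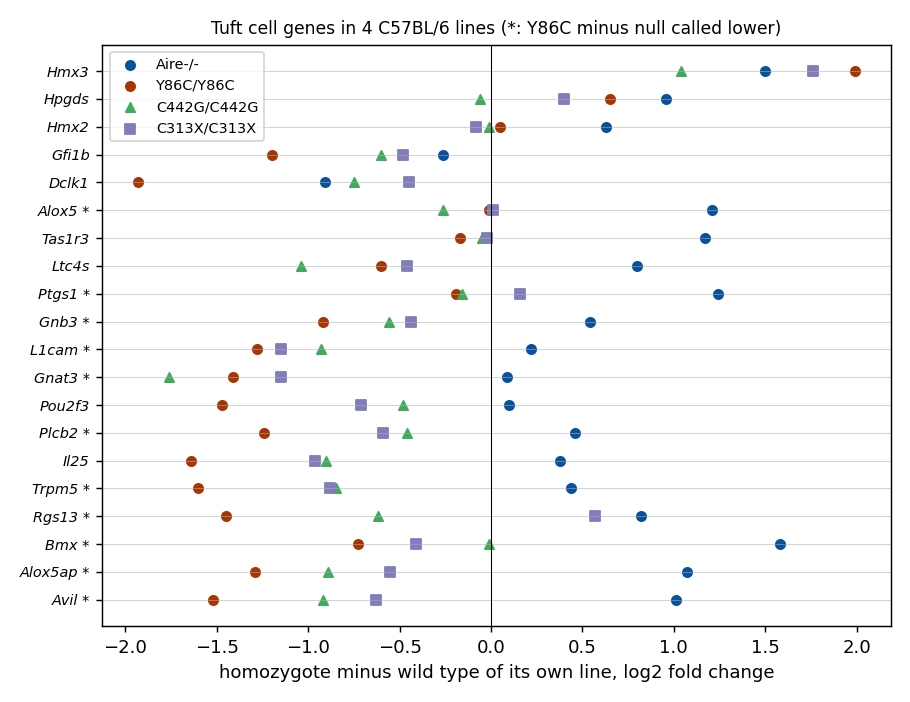
Each row is 1 of the 20 tested tuft genes and the x axis gives the log2 change of a homozygote relative to wild types of the same line, in 4 lines. The null allele lies to the right of Y86C for 19 of the 20 genes, Hmx3 being the exception, and asterisks mark the 11 genes called lower in the difference.

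The other mimetic cell lists did not share the opposite directions. Of 17 keratinocyte genes, 14 fell with Y86C and 9 with the null allele, and 5 were lower in the difference. The shares over all tested genes were 26.6%, 21.5% and 3.43%. Krt10, a keratin of the upper epidermis, went from 153, 132 and 115 CPM to 21.6, 33.4 and 40.3 with Y86C and from 69.1, 83.2 and 65.3 to 45.7, 49.5, 35.5 and 34.2 with the null allele. Spink5, a protease inhibitor of the cornified layer, fell to 11.4, 16.6 and 20.2 CPM with Y86C, while Aire -/- held 19.3 to 40 CPM against 18.3 to 24.4 and its effect there was not called. The differences of Krt10 and Spink5 were not called with heterozygotes in the fit or in the fit of 4 tables. The keratinocyte count fell to 1 with heterozygotes in the fit, to 0 in the fit of 4 tables, and to 2 or 3 without Y86C wild-type replicate 1 or Y86C/Y86C replicates 4 or 5. Microfold-like and goblet-like genes gave 14 of 17 fallen with each allele, with 2 lower and 1 higher in the difference. Over all tested genes 2.75% were higher in the difference. The lower ones were Ccl20 and Ccl6 and the higher one Spib, and their calls were lost in 1, 3 and 10 of 19 alternatives. Motile cilia genes gave 2 lower of 13, Dynlrb2 and Foxj1, beside 3.43% of all tested genes. Their calls were lost in 13 and 15 of 19 alternatives, and DESeq2 called none of the list.

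**Figure D5:**
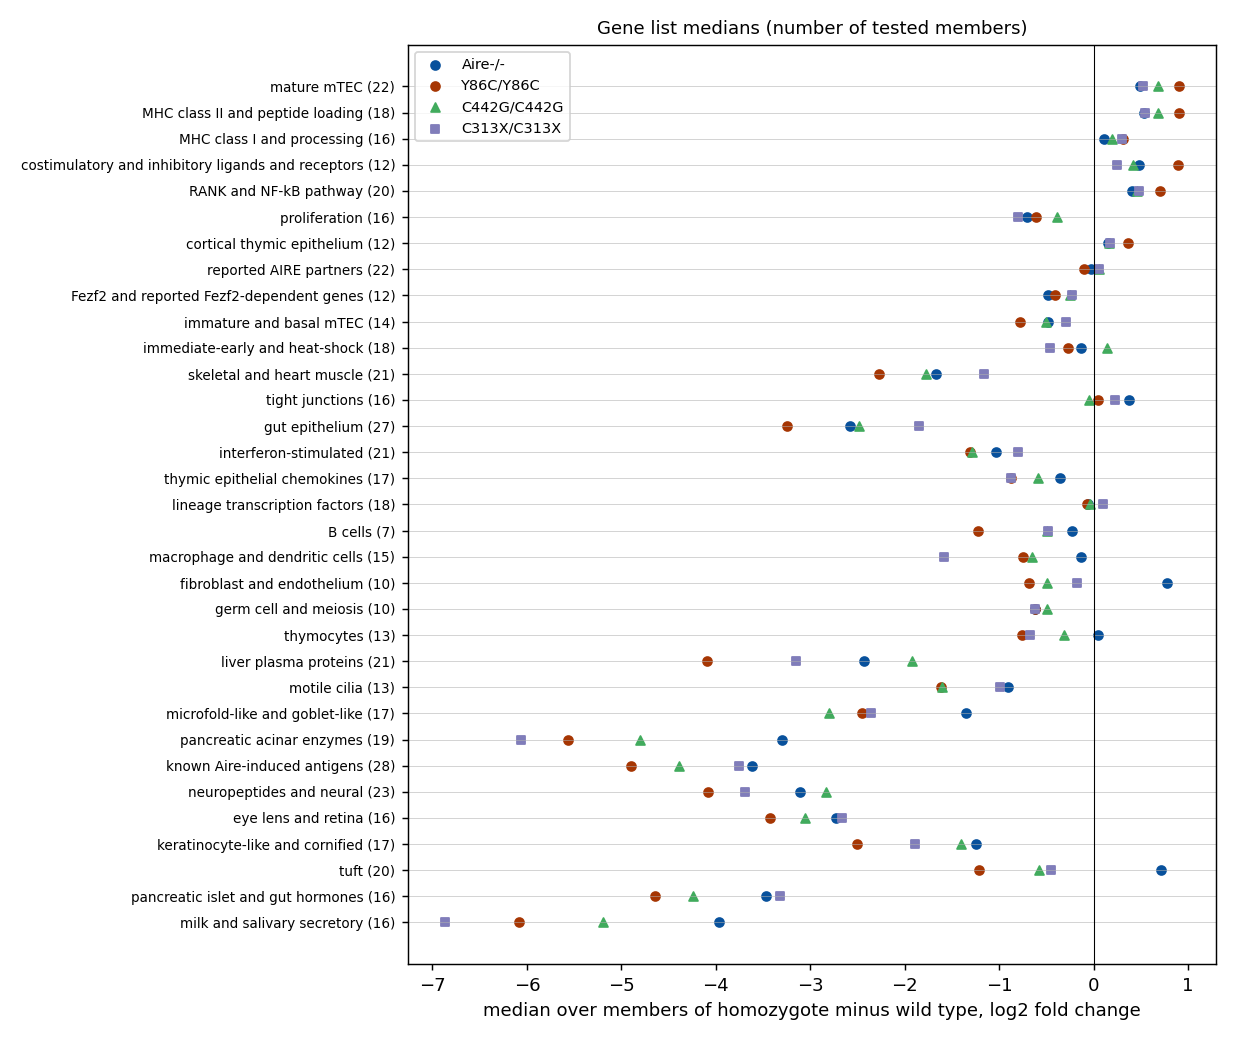
The x axis gives the median log2 change over the tested members of each gene list, for homozygotes of 4 lines against their own wild types, with the number of members in parentheses. Lists are ordered by the median difference between Y86C and null; tuft is at -1.22 with Y86C and 0.71 with the null allele, and mature mTEC is at 0.90 and 0.49.

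The claudin genes Cldn3, Cldn4 and Cldn7 had higher changes with the null allele than with Y86C. Of 16 tight junction genes, 4 were lower in the difference, namely Cldn3, Cldn4, Cldn7 and Cgn, and none was higher in edgeR, also at an unadjusted p under 0.05, or in DESeq2. The edgeR shares over all tested genes were 3.43% lower and 2.75% higher. Cldn3 stood at 143, 182 and 136 CPM in the wild types of the Y86C line and 188, 184 and 224 in Y86C/Y86C. For the null allele it went from 121, 121 and 135 CPM to 323, 305, 256 and 298. It rose with both alleles, by 0.37 and 1.24, and the difference was -0.87 ± 0.15 (adjusted p = 0.000283, edgeR). Cldn4 also rose with both, by 0.52 and 1.27, but its homozygotes ended level, at 295, 281 and 326 CPM against 337, 297, 273 and 315. Cldn7 was not called with Y86C, at 441, 456 and 422 CPM against 451, 452 and 487, and rose to 347 to 391 CPM from 250 to 301 with the null allele. None of the 4 calls held in the fit of 4 tables, where the adjusted p was 0.168 for Cldn3 and 0.0718 for Cldn4, and heterozygotes in the fit left 2.

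Among called genes with at least 5 CPM in the highest group mean and at least 4 counts in every group, the 10 named for the largest downward difference were Col3a1, Nov, Fcna, Cd34, Ctsk, Sparc, Adra2a, Col1a1, Cela1 and Pyy. Col3a1, a fibrillar collagen chain, stood at 16.3, 11.7 and 12.1 CPM in wild types and at 0.318, 0.649 and 0.56 in Y86C/Y86C. In the null line it stood at 7.79, 3.88 and 2.93 CPM in wild types and 6.97, 17, 13.6 and 10.5 in Aire -/-, so the groups overlapped there. The difference was -5.81 ± 0.62 (adjusted p = 2.15e-07, edgeR), and it was not called in the fit of 4 tables (adjusted p = 0.0863). Col1a1 fell with both alleles, to 1.27, 2.27 and 2.8 CPM in Y86C/Y86C and 7.36, 17, 10.4 and 8.76 in Aire -/-; its call was lost in the fit of 4 tables (adjusted p = 0.122, edgeR). Sparc, a collagen-binding matricellular protein, fell from 193, 156 and 145 CPM to 2.86, 9.09 and 6.16 with Y86C and from 61.6, 62.7 and 48.8 to 17.4, 23.8, 28.7 and 23.5 with the null allele, a difference of -3.45 ± 0.31 (adjusted p = 2.76e-07, edgeR) that held in every alternative. Nov, another matricellular protein, went from 33.7, 31.5 and 32.1 CPM to 1.27, 0.974 and 1.12 with Y86C, and stood at 7.45 to 11.2 and 4.24 to 7.75 in the null line.

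Markers of other cell types did not move as 1 group. Over 10 fibroblast and endothelial genes the median change was -0.69 with Y86C and 0.78 with the null allele, opposite directions as for tuft genes. The difference was below 0 for 9 of the 10. Calls in the difference made up 3.43% lower and 2.75% higher over all tested genes. In the list of fibroblast and endothelial genes, 3 of 10 were lower and 1 was higher in the difference, and the list summed to 509 to 621 CPM in Y86C/Y86C, 271 to 304 in its wild types, 189 to 287 in Aire -/- and 162 to 205 in its wild types. The higher member was Dcn, which encodes the proteoglycan decorin and reached 554, 456 and 449 CPM in Y86C/Y86C. Dcn thus made up most of the list sum there. Pecam1 was at 8.12 to 12.1 CPM there, and at 2.22 to 8.71 in the other groups. Of 15 macrophage and dendritic genes, 2 were lower, beside 3.43% of all tested genes. They were the growth factor receptor gene Csf1r and Adgre1, which encodes F4/80. Csf1r stood at 10.8, 12.7 and 19 CPM in Y86C/Y86C and at 39.9 to 64.1 in Aire -/-. In the fit of 4 tables neither was called (adjusted p = 0.0946 for Csf1r, edgeR), and Adgre1 lost its call in 5 of 19 alternatives. The macrophage list summed to 1391 to 1525 CPM in Y86C/Y86C, 1192 to 1195 in its wild types, 1331 to 1768 in Aire -/- and 1218 to 1531 in its wild types. Thymocyte genes summed to 245 to 285, 235 to 263, at least 313, and 280 to 380 CPM in the same order, and B cell genes to 106 to 121, 87 to 108, 118 to 144 and 95.2 to 152 CPM. Of the thymocyte markers, Ptcra was at 0 in some homozygous libraries of both lines. Cd8b1 ranged from 3.67 to 28.3 CPM in Aire -/- and from 7.11 to 9.98 in its wild types, and Rag1 from 1.13 to 12.8 and from 3.9 to 4.99. In the Y86C line Cd8b1 reached at most 5.04 CPM and Rag1 at most 5. Of the cortical markers, Psmb11 ranged from 0 to 5.42 CPM, Ly75 from 0.833 to 4.35 and Prss16 from 39.7 to 164. The part of these cells in the results was not tested.

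Among chemokines, 3 of 17 were lower in the difference and 1 was higher, beside 3.43% and 2.75% of all tested genes. Cxcl12, a ligand of CXCR4, held 4.77, 5.2 and 6.72 CPM in Y86C/Y86C against 11.4, 13.2 and 22.1 in wild types, while Aire -/- and its wild types overlapped at 11.5 to 25.6 and 13.9 to 18 CPM. Ccl20, a ligand of CCR6, fell with both alleles. The fit of 4 tables called neither Cxcl12 nor Ccl20 (adjusted p = 0.328 and 0.188, edgeR). Cxcl16 was the higher member, at 144, 144 and 139 CPM in Y86C/Y86C and 93.9 to 114 in Aire -/-. Reported AIRE partners gave no call among 22 members in edgeR or DESeq2, with 2 at an unadjusted p under 0.05 in edgeR. Nor did 16 proliferation genes, with 1 at an unadjusted p under 0.05, of which 9 fell with Y86C and 13 with the null allele. With 6.18% of all tested genes called in the difference, no call in lists of this size is near that share.

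Outside the lists, Ube2l6 had the smallest adjusted p of the 10 genes named for the largest upward difference under the same limits on CPM and counts. It encodes the enzyme that conjugates ISG15 to proteins, and it stood at 265, 205 and 212 CPM in Y86C/Y86C, 64.7, 64.2 and 98.2 in its wild types, 83.7, 65.3, 80.3 and 58.2 in Aire -/- and 89.4, 86 and 64.8 in its wild types. Only Y86C/Y86C stood apart from the other 3 groups. The difference was 1.77 ± 0.25 (adjusted p = 0.000814, edgeR). ISG15 itself went the other way: Isg15 held 45.1, 43.5 and 38.1 CPM in Y86C/Y86C and 54.2 to 69 in Aire -/-, both below their wild types. Epha3, an ephrin receptor, and the surface glycoprotein gene Cd200 were higher by 1.84 and 1.64, each at higher CPM than in wild types with Y86C on average and lower with the null allele.

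Some large changes were of nearly equal size. Nrg1, which encodes a ligand of ERBB receptors, rose from 48.1, 44.4 and 47 CPM to 245, 231 and 217 with Y86C and from 39.3, 38.8 and 35.1 to 189, 143, 203 and 192 with the null allele. The difference of 0.05 had a 95% interval of -0.29 to 0.39. The muscle calcium channel gene Cacna1s and the prokineticin receptor gene Prokr2 had intervals of -0.37 to 0.21 and -0.37 to 0.29 around changes of over 4-fold. Nefh, a neurofilament subunit, fell by 2.28 with each allele, with an interval of -0.48 to 0.49. Those 4 genes were chosen for narrow intervals, so their small differences are a description. The rule chose 8 genes in all, and 3 of the others did differ. Pomc is described above, and Saa1, an acute-phase protein, differed by -1.02 ± 0.23 (adjusted p = 0.00862, edgeR; up to 0.404 in the alternatives). Syn2, a synaptic vesicle protein, had a difference of 0.45 that was not called (adjusted p = 0.0875, edgeR), with an interval of 0.13 to 0.78. Ptgds fell to 7.63, 7.14 and 9.52 CPM in Y86C/Y86C and to 16.7, 17.8, 18.8 and 17 in Aire -/- (difference -2.03 ± 0.21, adjusted p = 8.34e-08, edgeR). It encodes the prostaglandin D synthase of brain and meninges.

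Of the 842 called genes, 636 differed between homozygotes and 426 between wild types. In 407 the homozygotes differed and the wild types were not called, as for H2-Eb1 and Avil. In 197 the wild types differed and the homozygotes were not called, as for Pomc and Cldn4. Both differed in 229 and neither in 9. The counts have to be read against the 35.8% of all genes called between homozygotes and the 29.5% called between wild types.

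The remaining C57BL/6 alleles of the study give side values, each against wild types of its own table. C442G and C313X homozygotes numbered 6 and 3, with 3 wild types each, and all C313X values carry a change in Xist of 5.80 on the log2 scale, as a difference in sex between its groups would give. In C442G, 5801 genes (42.6%) were called, and in C313X 3143, with 1066 higher (7.82%) and 2077 lower (15.2%). For the 151 genes with at least 4 counts in each group that lay below 0 with Y86C and above 0 with the null allele, the medians were -0.76 and 0.42. They were -0.53 in C442G and -0.44 in C313X, and 123 of 150 and 117 of 149 genes lay nearer to Y86C than to null. For 31 genes that were above 0 with both alleles and lower with Y86C, the medians were 0.52 and 1.46, against 0.49 in C442G and 0.54 in C313X. For 228 genes below 0 with both alleles and lower with Y86C, the medians were -2.43 and -0.76, against -1.77 and -1.43, with 139 of 227 and 96 of 227 nearer to Y86C. The tuft list had medians of -0.58 and -0.45 in these lines, with 8 of 20 fallen in C442G and 1 of 20 in C313X, beside 23.1% and 15.2% of all genes that fell, so the C313X count is below the share over all genes. Avil changed by -0.92 and -0.63, Ptgs1 by -0.16 and 0.16, and Rgs13 by -0.62 and 0.57. The selection of these genes used the Y86C and null libraries, and the difference between lines was not tested.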

How the data were processed

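Bulk MARS-seq of sorted mTEChi was analysed from the deposited raw count columns, per the file headers; values are whole counts per gene. The submitters' processing notes name bcl2fastq, cutadapt, STAR 2.4.2a, HTSeq, DESeq2 and mm10, with no settings; duplicate and strand handling are not given in the sources used here. Genes in both tables (15508 of 15991 and 16263 rows) were joined by symbol. Counts were normalized by TMM, filtered with filterByExpr and fitted by edgeR 4.0.16 (robust quasi-likelihood, R 4.3.3) with 4 group means; contrasts gave both effects and their difference, with SE as the absolute log2 change over the square root of F. CPM are counts scaled to the TMM-adjusted library size. Totals were 1690548 to 3618266, and floors of 3 counts and 95% intervals of counts cover counting error only. C442G and C313X were fitted in their own tables. Replicate pairs differed beyond sampling noise, so none was merged. The fit was tested on simulated data.

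Alternatives comprised heterozygotes in the fit, 4 tables together, a sex term, DESeq2 1.42.0, RLE size factors, all genes unfiltered and each library left out. Named genes were Aire, up to 10 each way by the largest difference among called genes with at least 5 CPM and 4 counts per group, up to 3 each way with a near-empty group, 6 with opposite effects, 4 each way changed alike at least 4-fold with the narrowest interval, and up to 3 called members per list; other list members are named to describe a list. The members and the 35 lists were chosen with earlier results of these data known. Positions are from GENCODE vM21 (84 of 87 named genes matched).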

Additional observations from a re-analysis of the deposited data

Results flagged for a closer look

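The difference of both homozygous effects was called for 842 genes by a test of the difference itself, edgeR's quasi-likelihood test with Benjamini-Hochberg adjustment. The 6 genes named for opposite effects had differences of -3.43 for Adra2a, -2.37 for Alox5ap, -2.53 for Avil, -5.81 for Col3a1, -2.36 for Lrmp and -2.62 for Sh2d7 on the log2 scale; each fell with Y86C and rose with the null allele. Alox5ap, the partner protein of 5-lipoxygenase, held 9.85, 12 and 16.8 CPM in Y86C/Y86C and 31.8, 62.9, 51.1 and 65.6 in Aire -/-, and its call was lost without Y86C/Y86C replicate 4 (adjusted p = 0.0548, edgeR). For F2, the prothrombin gene, 1 Aire -/- library stood at 27.9 CPM, apart from the others at 18.6, 17.7 and 18.4. The threshold is a 95% critical value, so by its construction about 1 in 20 groups passes by chance, and 1 of 85 genes examined did.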

How the results depend on the processing

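No named gene reversed its direction in any alternative, and of 82 named genes called in the difference, 28 kept their call in all 19. The fit of 4 tables ended 47 of the 82 calls, heterozygotes in the fit 17 of 81, DESeq2 12, the sex term 11, RLE factors 1 and no filter 1. The counts of genes higher and lower were 162 and 129 in the fit of 4 tables, where the shared estimate of spread covers libraries of other lines; the cause was not tested. Leaving out each library gave 199 to 385 higher and 267 to 494 lower, the lowest of both without Y86C/Y86C replicate 4. The share of calls that were higher was 44.5%, against 57.9% with heterozygotes in the fit and 55.7% in the fit of 4 tables. The correlation and slope over all tested genes were 0.89 and 1.44. With no fold limit, the median changes of the C442G set were -1.56 with Y86C and -0.93 with null, and those of the C313X set -2.57 and -1.70; these sets hold more genes with small changes. No paired analysis was possible because the groups compared share fewer than 2 replicate numbers. Depth limits genes near 0 counts: 57 of the 842 called genes have a group of 0 to 3 counts.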

Other observations

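Heterozygotes of both lines were sequenced as well (3 Y86C, 5 null). Against their wild types, Y86C heterozygotes had 194 genes higher and 41 lower, and null heterozygotes 55 higher and 24 lower, of 13690 tested. The difference of both heterozygous effects had 0 calls in edgeR's quasi-likelihood test, with 777 genes at an unadjusted p under 0.05. The tuft list had a median of 0.04 in Y86C heterozygotes and 0.56 in null heterozygotes, with no member called and 1 member called higher, respectively. Over all tested genes the median was -0.01 in each. Among known AIRE-induced antigens the medians were -0.30 and -0.04, with 2 of 29 members lower in each, beside 41 and 24 of all 13690 genes. Class II genes had medians of 0.28 and 0.12, with 4 of 18 higher in Y86C heterozygotes and 0 in null heterozygotes, beside 194 and 55 of all 13690 genes.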
